A study of Mus musculus with 17 samples.

Results

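The genes described here are 10 genes of arachidonic acid metabolism, chosen by name: the phospholipases Pla2g4a and Pla2g7, the cyclooxygenases Ptgs1 and Ptgs2, the prostaglandin E synthase Ptges, the lipoxygenases Alox5 and Alox15, the 5-lipoxygenase activating protein Alox5ap, and the leukotriene synthases Lta4h and Ltc4s. All 10 were found in each of the 3 gene tables, out of 17556 genes named in at least 1 of them. The tables held RNA-seq expression as RPKM, read counts divided by exon length and by library size, for cells sorted from tumor-bearing mouse lungs 10 weeks after tumors were started. There were 12 libraries, 2 for each genotype in tumor cells, in lung tissue-resident macrophages (TRMs) and in monocyte-derived macrophages (MDMs). KL mice carried KrasLSL-G12D/+ and Lkb1fl/fl, and KLG4 mice carried the same alleles together with Gpx4m/m. Both genotypes received Ad-Cre, an adenovirus carrying Cre, through the nose, and then tamoxifen. The Gpx4m allele has rox sites around exons of Gpx4, and the DreERT2 recombinase that removes them is driven by a CAG promoter and becomes available only in cells that Cre has reached. Cre came from the virus and not from a promoter of 1 cell type, so it was limited to cells that the virus infects. The study reports the rearranged Gpx4 allele selectively in sorted tumor cells. It also reports less GPX4 protein in these, but not in endothelial, stromal or immune cells. The labels give no age and do not tie the 2 libraries of a group to separate mice, while the study counts the tumor cell groups in mice. The p-values below measure only the spread between these libraries.

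Arachidonic acid is cut out of membrane phospholipids by cytosolic phospholipase A2 and then takes one of several routes. Cyclooxygenases turn it into prostaglandin H2, from which terminal synthases make prostaglandin E2, prostaglandin D2, prostacyclin or thromboxane, whereas 5-lipoxygenase with its activating protein makes leukotriene A4, which is converted to leukotriene B4 or to leukotriene C4. In the lung, macrophages and granulocytes are known for the leukotriene route, and epithelial and tumor cells for making prostaglandin E2.

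By the mouse annotation of GRCm38, all 10 are protein-coding genes. Pla2g4a, which codes for cytosolic phospholipase A2, lies at chr1:149829618-149961290 on the minus strand, and its neighbor Ptgs2, the inducible cyclooxygenase, starts 139 kb away at chr1:150100031-150108227 on the plus strand. Ptges, which makes prostaglandin E2, lies at chr2:30889471-30929863, and Ptgs1, the constitutive cyclooxygenase, at chr2:36230426-36252272. Alox5 lies at chr6:116410077-116461178, Alox5ap at chr5:149264767-149288153, and Alox15, the 12/15-lipoxygenase, at chr11:70344152-70352031. Ltc4s, which makes leukotriene C4, lies at chr11:50236461-50238616, Lta4h, the leukotriene A4 hydrolase, at chr10:93453411-93484875, and Pla2g7, which breaks down platelet-activating factor, at chr17:43568098-43612201. Reads were counted over exons without regard to strand, and 4 of the 10 genes share exon bases with a gene model on the other strand: Ltc4s shares 268 bases with Gm26542, Pla2g7 shares 319 with 1700071M16Rik, Alox5ap shares 189 with Gm19719, and Ptgs1 shares 148 with Gm43621. Reads from such a pair cannot be told apart over those bases.

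RefSeq gave a promoter, 250 bases before to 50 after a start site in GRCm38.p6, for 8 of the 10 genes. Printed here are Alox5 and Ptges, which had the largest rise and the largest fall in KLG4 tumor cells among those 8, Ptgs2, the highest of the 10 genes in KL tumor cells, and Pla2g7, whose KLG4 libraries lay above KL in TRMs and below it in MDMs. Capitals mark every match, on either strand, to any of 9 motifs. Those found in the printed windows were GGGCGG, the GC box bound by Sp1 and its relatives, CACGTG, an E-box bound by basic helix-loop-helix factors, TTGCNNAA, a core of the sites bound by C/EBP factors, and a core of the sites bound by NF-kB. The other motifs searched, without a match in these windows, were TATAAA (the TATA box), CCAAT (the box bound by NF-Y), TGACGTCA (the cyclic AMP response element), GAGGAAG (a core of PU.1 sites) and TGANTCA (AP-1 sites).
Alox5, minus strand of chr6:116461129-116461428: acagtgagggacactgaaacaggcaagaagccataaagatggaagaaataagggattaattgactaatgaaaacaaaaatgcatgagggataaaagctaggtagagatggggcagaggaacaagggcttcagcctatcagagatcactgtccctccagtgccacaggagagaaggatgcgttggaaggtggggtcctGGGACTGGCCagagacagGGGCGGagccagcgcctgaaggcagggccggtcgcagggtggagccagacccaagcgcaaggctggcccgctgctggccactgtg
Ptges, minus strand of chr2:30903248-30903547: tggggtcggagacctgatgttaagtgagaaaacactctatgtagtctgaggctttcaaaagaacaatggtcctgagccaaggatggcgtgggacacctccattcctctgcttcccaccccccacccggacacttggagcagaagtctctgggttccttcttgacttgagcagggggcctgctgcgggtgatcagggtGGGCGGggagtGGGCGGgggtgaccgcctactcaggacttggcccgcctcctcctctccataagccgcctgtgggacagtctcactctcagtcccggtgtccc
Ptgs2, plus strand of chr1:150099781-150100080: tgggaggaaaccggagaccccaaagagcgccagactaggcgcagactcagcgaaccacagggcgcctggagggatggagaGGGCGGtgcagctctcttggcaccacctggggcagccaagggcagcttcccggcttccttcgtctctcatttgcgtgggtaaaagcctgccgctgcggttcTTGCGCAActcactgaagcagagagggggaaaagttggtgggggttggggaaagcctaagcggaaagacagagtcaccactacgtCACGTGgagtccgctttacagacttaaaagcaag
Pla2g7, plus strand of chr17:43568201-43568500: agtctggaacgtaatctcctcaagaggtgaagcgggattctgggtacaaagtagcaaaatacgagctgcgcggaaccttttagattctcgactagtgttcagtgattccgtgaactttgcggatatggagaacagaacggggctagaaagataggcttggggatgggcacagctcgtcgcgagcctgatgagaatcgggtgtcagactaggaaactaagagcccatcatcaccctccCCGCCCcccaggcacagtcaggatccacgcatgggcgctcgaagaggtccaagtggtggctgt
The Ptges window held 2 GC boxes and each of the other windows 1, and 35.6% of 32817 promoters of this length held at least 1. The Alox5 window also matched the NF-kB motif, found in 20.7% of promoters, and the Ptgs2 window the C/EBP motif and the E-box, found in 10.8% and 7.15%. The matches in these windows did not overlap. GC content was 55.7% for Alox5, 60.0% for Ptges, 59.3% for Ptgs2 and 54.0% for Pla2g7, against a median of 52.7% over all promoters.

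The libraries held 9140750 to 36616982 counted reads. Gpx4, the gene targeted in KLG4 alone, was at 76.8 to 94.9 RPKM in KL and 56.4 to 61.9 in KLG4 tumor cells, at 88.2 to 89.8 and 53.8 to 57.0 in TRMs, and at 44.9 to 71.3 and 93.6 to 97.7 in MDMs. Stk11, the Lkb1 gene targeted in both genotypes, was at 25.8 to 25.9 RPKM in KL and 61.6 in KLG4 tumor cells. It was at 21.5 to 23.3 and 40.0 to 42.5 in TRMs, and at 62.3 to 72.6 and 177 to 203 in MDMs. Tumor cells carried epithelial markers such as Epcam and Krt8, and TRMs carried Marco, Chil3 and Car4. By summed markers the MDM libraries went against their label: 10 neutrophil markers summed to 10770 to 23780 RPKM in them, above the 495 to 2384 RPKM of 9 monocyte-derived macrophage markers. A single gene, S100a9, at 9379 to 21106 RPKM, made up most of the neutrophil sums. The KL MDM replicate 2 stood apart, with the lowest neutrophil sum and the highest macrophage sum of the 4. In it, neutrophil markers other than S100a8 and S100a9 were each at most 208 RPKM, and the macrophage marker Apoe was at 2074. The KLG4 tumor libraries lay close to sampling noise, with a median chi-square of 1.38 per gene where 0.91 is expected when both mates of a pair are counted, and 3.63 to 15.9 in the other 5 groups. In TRMs, mitochondrially encoded genes took 9.17% to 13.2% of reads in KL and 1.43% to 2.40% in KLG4. Their share was also lower in KLG4 MDMs (1.35% to 3.36% against 0.494% to 0.661%) and was higher in KLG4 tumor cells (4.21% to 5.12% against 8.88% to 8.95%), and its part in the changes below was not tested beyond the rescaling without these genes. Over all 10990 genes tested in TRMs, KLG4 stood at a median of 0.38 above KL on the log2 scale, and at 0.02 with TMM scaling.

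Tables were deposited separately for each population, so levels across them are given without a test. Alox5ap was the highest of the 10 genes in the MDM libraries, at 351 to 432 RPKM, and in the TRM libraries, at 176 to 248 RPKM, and both ranges lay above the 3.35 to 79.3 RPKM of tumor cells. Pla2g7 followed the same order, with 133 to 318 RPKM in MDMs, 29.9 to 77.5 in TRMs and 7.85 to 27.1 in tumor cells, and no range overlapped another. Ltc4s was highest in TRMs, at 25.5 to 44.4 RPKM, then in MDMs, at 3.81 to 11.1, and lowest in tumor cells, at 1.52 to 3.76, again without overlap. Alox5 was at 17.3 to 27.1 RPKM in TRMs and 16.2 to 24.2 in MDMs, ranges that overlapped, and at 0.313 to 4.80 in tumor cells. For each of these 4 genes the tumor cell range was the lowest of the 3, and the high levels in the libraries labelled MDMs stand beside their neutrophil markers.

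Ptges was the reverse, with 7.05 to 23.0 RPKM in tumor cells and at most 2.08 RPKM in TRMs or MDMs, whose ranges overlapped. Ptgs2 was at 56.1 to 121 RPKM in MDMs and 35.0 to 60.0 in tumor cells, which overlapped, and at 4.01 to 6.45 in TRMs. Lta4h was highest in TRMs, with 11.4 to 17.0 RPKM, above the overlapping ranges of tumor cells (5.53 to 6.51) and MDMs (4.20 to 6.59). For Pla2g4a, with 2.20 to 10.1 RPKM over all libraries, and Ptgs1, with 1.25 to 8.46, the ranges of neighbors in the order overlapped. Alox15 was near the limit everywhere, with at most 2.70 RPKM and at most 84 reads in a library.

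**Figure D1:**
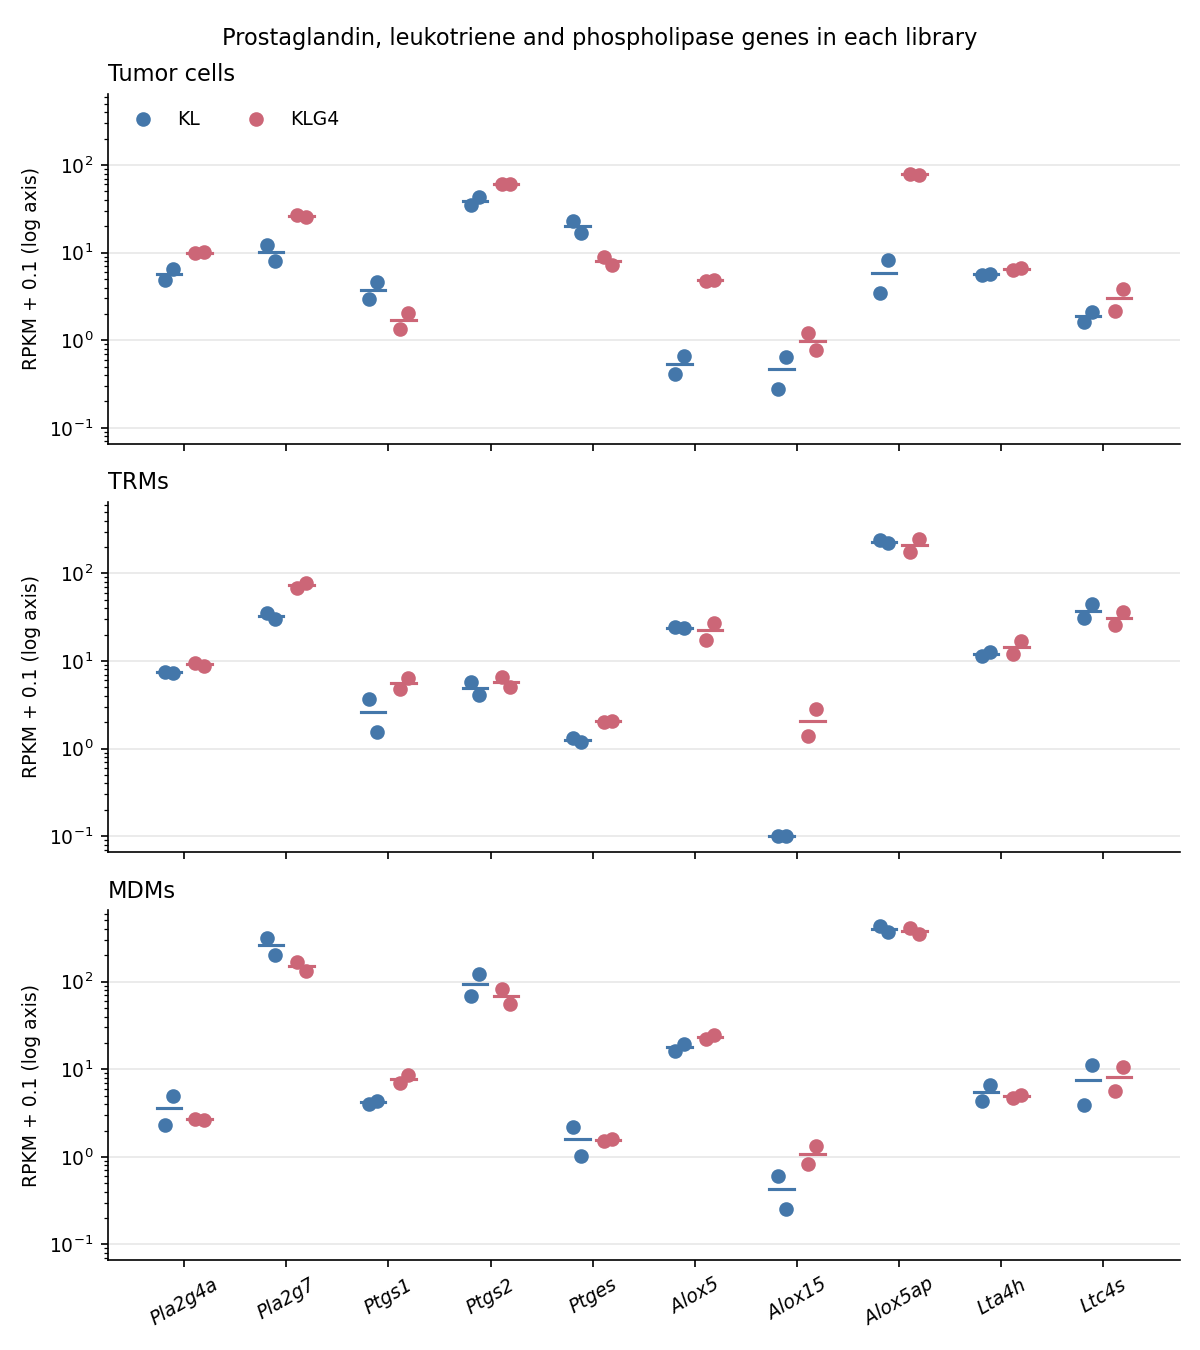
RPKM + 0.1 (log axis) of the 10 genes in the 12 libraries, 1 panel per population, with KL in blue and KLG4 in red, where points are libraries and bars are means of 2. In tumor cells the KLG4 points of Alox5 and Alox5ap lie well above KL and those of Ptges below, and in TRMs both KL points of Alox15 lie at the pseudocount.

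The first comparison asked how these genes differed in tumor cells when Gpx4 could be removed. Changes are log2 fold changes of RPKM + 0.1, KLG4 over KL, tested with limma, with p-values adjusted over all genes that reached 1 RPKM in at least 2 of the 4 libraries. Of the 10 genes, 9 passed that filter, Alox5 through its KLG4 libraries alone. Of the 9, 5 rose and 2 fell in KLG4 at an adjusted p under 0.05, against 40.3% of all 13770 genes tested. Of all genes tested, 20.6% were higher and 19.6% lower. Under quantile scaling 4044 of all genes fell and 2692 rose, in place of 2700 and 2843, and the same 7 of the 10 genes were called. The genotypes did not overlap for 9 of the 9, and for 74.7% of all genes. The median change of the 9 was 0.64, and that of all genes tested was -0.09. Alox5 and Alox5ap rose most, Pla2g4a, Pla2g7 and Ptgs2 rose less, Ptgs1 and Ptges fell, and Lta4h and Ltc4s did not pass the test. In bulk samples fewer cells of a type and less RNA per cell cannot be told apart.

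Among the phospholipases, Pla2g4a was at 4.79 and 6.42 RPKM in the KL tumor cell libraries and 9.71 and 10.1 in KLG4. The KLG4 values were the higher ones without overlap, with a log2 fold change of 0.82 (SE 0.19, 95% CI 0.35 to 1.29, limma adjusted p = 0.0201). Pla2g7 was at 12.1 and 7.85 RPKM in KL and 27.1 and 25.2 in KLG4. It too had no overlap, and rose by 1.41 on the log2 scale (SE 0.23, limma adjusted p = 0.00647).

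The cyclooxygenases went in opposite directions. Ptgs2 was at 35.0 and 42.9 RPKM in KL and 60.0 in both KLG4 libraries, which lay above KL. Its log2 fold change was 0.63 (SE 0.14, 95% CI 0.28 to 0.98, limma adjusted p = 0.0183). Ptgs1 was at 2.88 and 4.49 RPKM in KL and 1.25 and 1.94 in KLG4, which lay below KL, on 86 to 528 reads. Its log2 fold change was -1.16 (SE 0.32, 95% CI -1.95 to -0.36, limma adjusted p = 0.0356). Ptges, downstream of both, was at 23.0 and 16.8 RPKM in KL and 8.84 and 7.05 in KLG4. The groups did not overlap, and Ptges fell by 1.30 on the log2 scale (SE 0.21, limma adjusted p = 0.00647).

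The 5-lipoxygenase step showed the largest changes. Alox5 was at 0.313 and 0.564 RPKM in KL, on 47 and 70 reads, and at 4.65 and 4.80 in KLG4, on 337 and 314 reads. Its log2 fold change was 3.21 (SE 0.29, 95% CI 2.48 to 3.93, limma adjusted p = 0.000979), or 9.22-fold. Over the alternatives run it was 2.0, with a pseudocount of 1, to 3.58, with limma-voom, and was called in each that tested it. Alox5ap, which presents arachidonic acid to Alox5, was at 3.35 and 8.13 RPKM in KL and 79.3 and 76.6 in KLG4. Its log2 fold change was 3.87 (SE 0.40, 95% CI 2.87 to 4.88, limma adjusted p = 0.00148), or 14.7-fold. Leaving out KL replicate 1 gave 3.25, and leaving out KL replicate 2 gave 4.50. In both genes KLG4 lay far above KL, and the KL libraries differed from each other by more than the KLG4 libraries did.

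The enzymes that use leukotriene A4 did not pass the test. Lta4h, which makes leukotriene B4, was at 5.53 and 5.64 RPKM in KL and 6.20 and 6.51 in KLG4, with a log2 fold change of 0.18 (95% CI -0.18 to 0.55, limma adjusted p = 0.356). Ltc4s was at 1.52 and 2.02 RPKM in KL and 2.08 and 3.76 in KLG4, on 27 to 45 reads, with 0.64 (95% CI -0.19 to 1.48, limma adjusted p = 0.176). In both the KLG4 libraries were the higher ones, as they were for 32.5% of all genes tested. Alox15, at 0.178 and 0.552 RPKM in KL and 1.11 and 0.665 in KLG4, was not tested in tumor cells because 1 library alone reached 1 RPKM.

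How many of these calls held depended on the KLG4 tumor libraries. Without KLG4 replicate 1, 3 of the 9 were called (Ptges, Alox5 and Alox5ap), and without KLG4 replicate 2, 2 were (Alox5 and Alox5ap), the lone KLG4 library being assumed to vary like the KL libraries, while 1990 and 1927 of all 13770 genes were. With the KLG4 pair averaged and counted as 1 sample, Alox5 and Alox5ap were called, while Ptges (limma adjusted p = 0.0648), Pla2g7 (0.0782), Pla2g4a (0.168), Ptgs2 (0.176) and Ptgs1 (0.154) were not. Ptgs1 was also not called without KL replicate 2 (limma adjusted p = 0.0773).

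**Figure D2:**
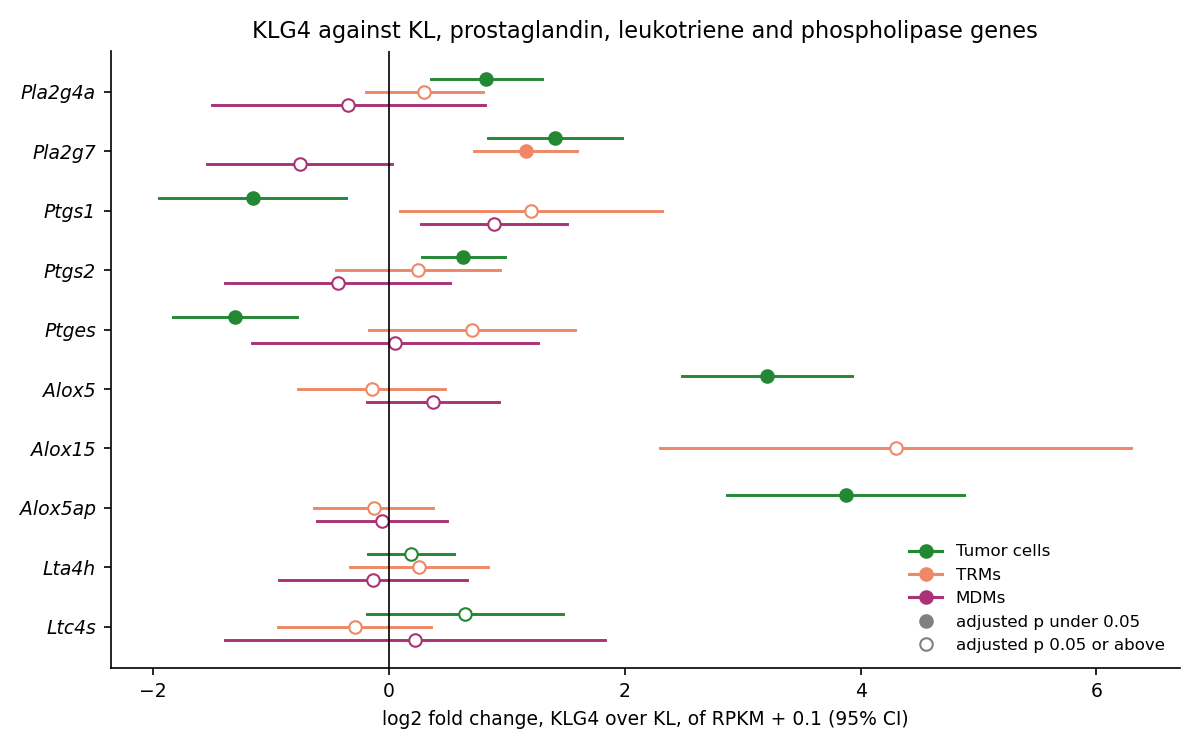
Log2 fold change of RPKM + 0.1, KLG4 over KL, with 95% confidence intervals from limma, for the 10 genes in the 3 populations (filled points: adjusted p under 0.05). Alox5 and Alox5ap stand at 3.21 and 3.87 in tumor cells and between -0.15 and 0.37 in the libraries labelled TRMs and MDMs, and the Alox15 value in TRMs rests on 0 reads in KL.

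Markers of other cells moved with these changes. The methods describe tumor cells as CD45-CD31-EpCAM+, a gate that would remove leukocytes and fibroblasts, though some passages of the methods write CD45+ or CD45.2+ for sorted tumor cells. In tumor cells all 10 leukocyte markers were higher in KLG4, their sum being 26.3 to 37.5 RPKM in KL and 322 to 326 in KLG4. Ptprc, which codes for CD45, was at 0.834 and 2.06 RPKM in KL and 26.7 and 27.4 in KLG4. All 10 fibroblast markers (14.8 to 19.5 against 489 to 500 RPKM), 9 of 9 monocyte-derived macrophage markers (38.7 to 44.3 against 514 to 517), 7 of 10 alveolar macrophage markers (73.3 to 87.7 against 407 to 415), 8 of 9 neutrophil markers (600 to 630 against 2703 to 2781), 10 of 10 T cell markers (1.96 to 3.50 against 58.0 to 66.3) and 9 of 9 dendritic cell markers (2.94 to 4.83 against 39.2 to 39.3) were also higher. All 10 epithelial markers were lower, with sums of 6734 to 9000 RPKM in KL and 3854 to 3864 in KLG4, as were 9 of 10 AT2 markers. Tuft cells, an epithelial type known for Alox5ap and Ptgs1, had 3 of 8 markers in the table, which summed to 2.75 to 2.89 RPKM in KL and 3.37 to 3.52 in KLG4, and Pou2f3, which defines the type, was not among them.

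Read against the leukocyte markers, Alox5 was 1.19% and 1.51% of the summed leukocyte markers in KL tumor libraries and 1.45% and 1.47% in KLG4, values that overlapped. Alox5ap was 12.7% and 21.7% in KL and 24.7% and 23.5% in KLG4, which lay above KL by less than the gap between the KL libraries. Pla2g7 was 46.2% and 21.0% in KL and 8.43% and 7.73% in KLG4. Ltc4s was 5.78% and 5.40% in KL and 0.646% and 1.15% in KLG4, and Lta4h was 21.0% and 15.1% in KL and 1.93% and 2.00% in KLG4. So Alox5 kept its ratio to the leukocyte markers within the spread of the KL libraries, and the ratios of Pla2g7, Ltc4s and Lta4h were lower in KLG4.

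Read against the epithelial markers, Ptges was 0.255% and 0.249% of their sum in KL and 0.229% and 0.182% in KLG4, a narrower gap than in RPKM. Ptgs1 was 0.0320% and 0.0668% in KL and 0.0326% and 0.0502% in KLG4, which overlapped. Ptgs2 was 0.389% and 0.637% in KL and 1.56% and 1.55% in KLG4. What part the mixture of cells had in the changes of the 10 genes was not tested further.

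**Figure D3:**
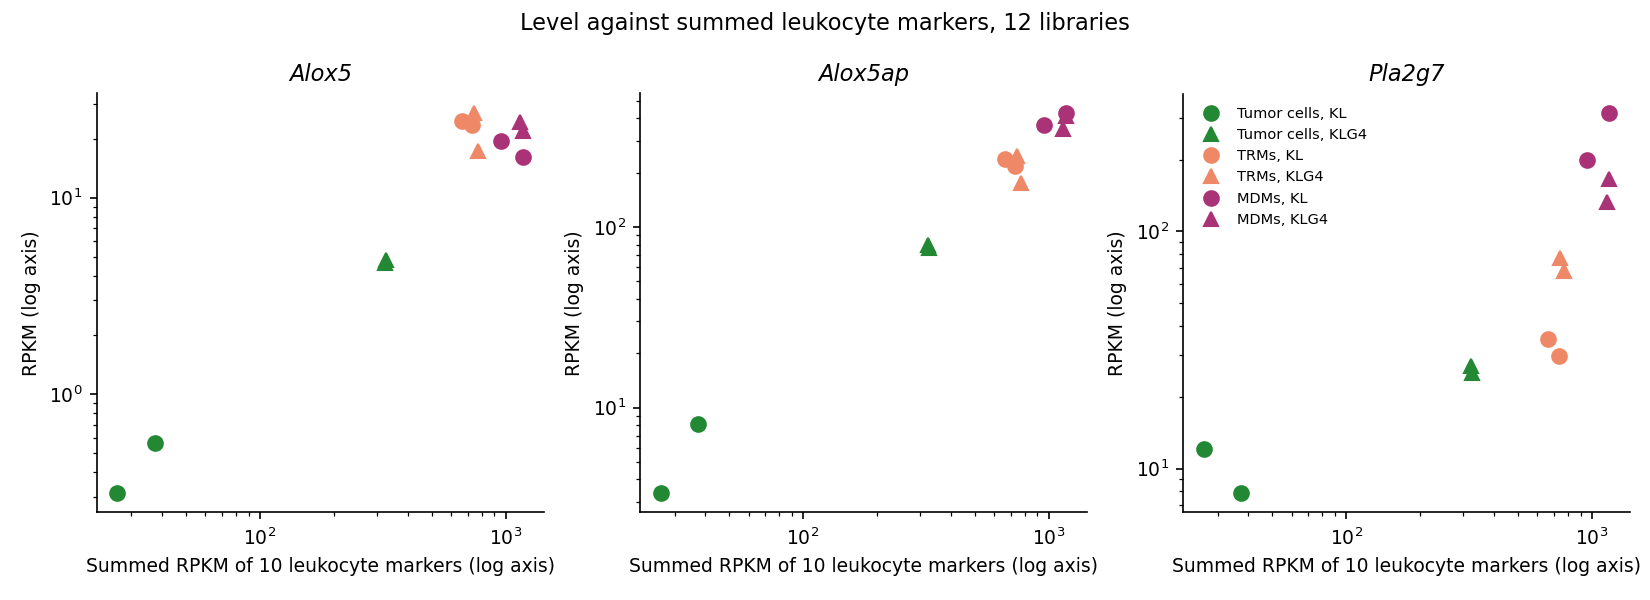
RPKM of Alox5, Alox5ap and Pla2g7 against the summed RPKM of 10 leukocyte markers in the 12 libraries (both axes log), colored by population, with circles for KL and triangles for KLG4. The KLG4 tumor libraries lie between the KL tumor libraries and the TRM and MDM libraries on both axes.

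In TRMs, 1 of the 9 genes other than Alox15 passed the test, against 1.80% of 10990 genes tested (1.36% higher and 0.437% lower). All 10 passed the filter, Alox15 through its KLG4 libraries alone. Of all genes called, 150 rose and 48 fell, and with TMM scaling 8 rose and 20 fell. Pla2g7 was at 35.3 and 29.9 RPKM in KL TRMs and 68.0 and 77.5 in KLG4. The groups lay apart, with a log2 fold change of 1.16 (SE 0.18, 95% CI 0.72 to 1.59, limma adjusted p = 0.0475). The call was at the edge: the change was 0.78 with TMM scaling (limma adjusted p = 0.139) and stood between 1.04 and 1.28 when each library in turn was left out, and 3 of those 4 fits had a limma adjusted p of 0.0584 to 0.102.

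Alox15 was at 0 in both KL TRM libraries and at 1.28 and 2.70 RPKM in KLG4, on 84 and 78 reads. Against a floor of 3 reads in each KL library the KLG4 mean was at least 15.5-fold higher, and since the gene passed the filter through KLG4 alone, no result here rests on its test. Eosinophils are known for Alox15, and 5 of 8 eosinophil markers, Epx and Prg2 among them, were not in the TRM table. The other 3 summed to 130 to 156 RPKM in KL and 121 to 132 in KLG4, and did not move alike. Siglecf, also an alveolar macrophage marker, overlapped between the genotypes. Ear1 fell from 100 and 118 to 65.4 and 87.0 RPKM, and Ear6 rose from 9.74 and 14.8 to 37.1 and 21.1. Ptgs1 was at 3.60 and 1.46 RPKM in KL and 4.73 and 6.26 in KLG4, with KLG4 above KL and a log2 fold change of 1.20 (95% CI 0.09 to 2.32, limma adjusted p = 0.156). Ptges, at 1.22 and 1.09 RPKM in KL and 1.93 and 1.95 in KLG4, had a log2 fold change of 0.70 (95% CI -0.17 to 1.58, limma adjusted p = 0.244). KLG4 lay above KL for 4 of the 9 genes other than Alox15 and for 53.7% of all genes tested, and the genotypes did not overlap for 62.7%, so that count was not above its background. At an unadjusted p under 0.05 there were Pla2g7 and Ptgs1 of the 9 genes other than Alox15, against 28.3% of all genes.

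Alox5ap, Alox5 and Ltc4s, all high in TRMs, gave overlapping groups. Alox5ap was at 238 and 219 RPKM in KL and 176 and 248 in KLG4, with a log2 fold change of -0.13 (95% CI -0.64 to 0.37). Alox5 was at 24.4 and 23.5 RPKM in KL and 17.3 and 27.1 in KLG4, with -0.15 (95% CI -0.77 to 0.47). Ltc4s was at 30.7 and 44.4 RPKM in KL and 25.5 and 35.7 in KLG4, with -0.29 (95% CI -0.94 to 0.36). In each of these 3 genes a KL library lay between the KLG4 libraries. Lta4h, at 11.4 and 12.4 against 11.9 and 17.0 RPKM, and Ptgs2, at 5.59 and 4.01 against 6.45 and 4.90, overlapped as well, with log2 fold changes of 0.25 and 0.24 that turned to -0.12 and -0.13 with TMM scaling. Pla2g4a, at 7.46 and 7.22 against 9.42 and 8.73 RPKM, had 0.30, which turned to -0.07 with TMM scaling. In TRMs, AT2 markers summed to 176 to 188 RPKM in KL and 52.1 to 73.4 in KLG4, and monocyte-derived macrophage markers to 465 to 487 and 744 to 783, with 8 of 9 higher in KLG4. Of 9 dendritic cell markers 8 were higher (14.2 to 23.2 against 46.3 to 55.9 RPKM), and of 9 epithelial markers 7 were lower (133 to 151 against 66.5 to 106 RPKM). Of 8 neutrophil markers 4 were lower and 1 higher, with sums of 155 to 240 RPKM in KL and 92.1 to 120 in KLG4. What part these had in the values was not tested.

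In MDMs, 0 of the 9 genes that passed the filter were called by limma, as were 0 of all 10475 genes tested (0.00%), and limma-voom on recovered reads also called 0. At an unadjusted p under 0.05 there were 706 genes (6.74%), of which 1 was among the 9. That gene was Ptgs1, at 3.93 and 4.24 RPKM in KL and 6.91 and 8.46 in KLG4. Its KLG4 libraries lay above KL, with a log2 fold change of 0.89 (SE 0.24, 95% CI 0.27 to 1.51, limma adjusted p = 0.679). Pla2g7 was at 318 and 201 RPKM in KL and 167 and 133 in KLG4, all KLG4 below KL, with -0.76 (95% CI -1.54 to 0.03, limma adjusted p = 0.679). The genotypes did not overlap for 3 of the 9, against 44.5% of all genes. Without KL replicate 2, the library that stood apart, the changes were 0.94 for Ptgs1 and -1.09 for Pla2g7. Over the 4 fits that each left out 1 library, they were 0.75 to 1.03 for Ptgs1 and -1.09 to -0.43 for Pla2g7.

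Among the other genes in MDMs, Ptgs2 was at 69.2 and 121 RPKM in KL and 81.6 and 56.1 in KLG4 (95% CI of the log2 fold change -1.39 to 0.52). Alox5ap was at 432 and 367 RPKM in KL and 415 and 351 in KLG4 (-0.61 to 0.49). Alox5 was at 16.2 and 19.5 RPKM in KL and 21.8 and 24.2 in KLG4 (-0.19 to 0.93). Of these 3 genes the groups lay apart for Alox5 alone, with KLG4 higher. Pla2g4a was at 2.20 and 4.92 against 2.59 and 2.56 RPKM, and without KL replicate 1 its change went from -0.34 to -0.91, past the threshold (limma adjusted p = 0.0416), while without KL replicate 2 it was 0.22. Leaving out KL replicate 1 took the call count over all genes from 0 to 2682. Ltc4s (3.81 and 11.1 against 5.58 and 10.4 RPKM), Lta4h (4.20 and 6.59 against 4.60 and 4.99) and Ptges (2.08 and 0.932 against 1.42 and 1.5) overlapped between the genotypes. Alox15, at 0.505 and 0.157 against 0.719 and 1.22 RPKM, was not tested here. Markers of other cells moved with genotype here too. AT2 markers summed to 163 to 386 RPKM in KL and 46.2 to 78.4 in KLG4 (7 of 10 lower), epithelial markers to 78.3 to 269 and 19.4 to 61.7 (8 of 9 lower), and fibroblast markers to 2.36 to 11.6 and 1.46 to 1.49 (5 of 5 lower). Of 10 endothelial markers 8 were lower, with sums of 34.9 to 68.7 in KL and at most 37.1 RPKM in KLG4 that overlapped. The part of these markers in the values was not tested.

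The changes were then compared between populations in 1 fit over the 12 libraries, in which the comparisons share libraries. Between tumor cells and TRMs, 4 of the 9 genes other than Alox15 differed at an adjusted p under 0.05, against 20.3% of 11489 genes tested. Of all genes called, 917 had the higher and 1413 the lower change in tumor cells, and with TMM scaling 1180 and 445. The change of Alox5ap was 3.87 in tumor cells and -0.13 in TRMs, a difference of 4.0 (95% CI 2.94 to 5.07, limma adjusted p = 0.000664). The change of Alox5 was 3.21 and -0.15, a difference of 3.35 (95% CI 2.49 to 4.21, limma adjusted p = 0.000583). Ptgs1 went the other way, -1.16 in tumor cells and 1.20 in TRMs, a difference of -2.36 (95% CI -3.63 to -1.09, limma adjusted p = 0.0185). Ptges, with -1.30 and 0.70, differed by -2.01 (95% CI -3.07 to -0.94, limma adjusted p = 0.0174). Alox15, at 0 reads in both KL TRM libraries, passed the filter only through libraries where it was higher and is left out of the count. Its fitted difference moved from -6.13 to -1.07 with the pseudocount and is no bound. With TMM scaling Ptgs1 and Ptges were no longer called in this comparison (limma adjusted p = 0.0588 and 0.0737), nor with the KLG4 tumor pair counted as 1 sample (0.0570 and 0.0636).

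Between tumor cells and MDMs, 4 of the same 9 genes differed, against 12% of genes tested, of which 1132 had the higher and 251 the lower change in tumor cells (992 and 420 with quantile scaling). Pla2g7 changed by 1.41 in tumor cells and -0.76 in MDMs, a difference of 2.17 (95% CI 1.34 to 3.0, limma adjusted p = 0.00356). Alox5ap differed by 3.94 (limma adjusted p = 0.000614) and Alox5 by 2.83 (0.00108), both larger in tumor cells. Ptgs1 differed by -2.04 (limma adjusted p = 0.0433) and lost the call in each of the 8 fits that left out 1 library of these populations (0.0532 to 0.170). Between TRMs and MDMs, 0 of these 9 were called by limma, against 0.226% of genes tested (24 higher and 2 lower in TRMs, and with TMM scaling 0), and 1, Pla2g7, had an unadjusted p under 0.05, against 18.3%. Pla2g7 gave 1.92 (95% CI 1.09 to 2.74, limma adjusted p = 0.0736), since KLG4 lay above KL in TRMs and below it in MDMs. Over 16 alternatives the difference was 1.51 to 2.25, and 14 of them did not call it either.

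Of 75 other genes of the pathway, listed by role, 55 were in the tumor cell table and 40 were tested. Of these 40, 13 rose and 11 fell in KLG4 tumor cells, beside 40.3% of all genes called, with a median change of -0.35. Genes high in 1 genotype alone can pass the filter. Among those that rose, Dpep1, Ptgis, Hpgds, Lpcat2, Cmklr1, Fpr2 and Mgll passed it through KLG4 alone, so the share is partly set by the filter. In leukotriene processing, 2 of 6 rose and 1 fell: Dpep1, a dipeptidase that turns leukotriene D4 into leukotriene E4, went from 0.275 and 0.346 RPKM to 19.1 and 17.7 (log2 fold change 5.50, limma adjusted p = 0.000102), and Cyp4f18, which degrades leukotriene B4, from 1.49 and 3.01 to 38.6 and 35.3 (4.06). Among the genes of platelet-activating factor, 2 of 7 rose and 2 fell: Ptafr, its receptor, went from 1.37 and 2.62 to 35.9 and 37.5 RPKM (4.20), and Lpcat2, which makes it, from 0.266 and 0.644 to 4.93 and 5.60 (3.36).

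Among the other prostanoid synthases, 2 of 5 rose and 1 fell. Ptgis, the prostacyclin synthase, went from 0.223 and 0.309 to 4.81 and 5.48 RPKM (log2 fold change 3.85), and Hpgds, the hematopoietic prostaglandin D synthase, from 0.242 and 0.273 to 4.92 and 4.29 (3.72). Ptger4, a receptor for prostaglandin E2, went from 0.891 and 1.21 to 2.80 and 3.97 RPKM (1.59), the call among 2 prostanoid receptors tested. Both resolving mediator receptors tested rose, Cmklr1 by 3.04 and Fpr2 by 2.73 on the log2 scale. Of 5 genes that transport or break down prostaglandins, 3 fell and the other 2 did not pass the test. Of 8 other phospholipases 2 rose and 2 fell, Pla2g1b, a secreted phospholipase A2, going from 5.90 and 4.08 to 1.27 and 1.94 RPKM (-1.58). In the release and re-esterification of arachidonate 2 of 5 rose and 2 fell, with Mgll, which cleaves monoacylglycerol, at 0.247 and 0.274 against 1.04 in both KLG4 libraries (1.66), and Ephx2, the soluble epoxide hydrolase, at 6.19 and 1.97 against 1.06 and 0.802 (-1.82, limma adjusted p = 0.0443). Of 15 alternatives, 9 lost the call of Ephx2 (limma adjusted p up to 0.231), 3 that of Fpr2 (up to 0.0687), 2 that of Ptger4 (up to 0.0844) and 2 that of Pla2g1b (up to 0.0945), in the last 3 genes when a KLG4 library was left out or the KLG4 pair was counted as 1. Leaving out KL replicate 1 moved Ephx2 to -1.01 and Fpr2 to 2.08, and leaving out KL replicate 2 moved them to -2.62 and 3.38, all of them called. With a pseudocount of 1 in place of 0.1 the changes of low genes were smaller, Cmklr1 standing at 1.77, Fpr2 at 1.4 and Mgll at 0.69, all of them called. In the same fit Dpep1 stood at 3.89, Ptgis at 2.28, Hpgds at 2.15 and Lpcat2 at 2.12, also called. With the KLG4 tumor pair counted as 1 sample, 10 of the 40 were called, and 1923 of all 13770 genes. These 40 genes share libraries, and their marker changes, with the 10.

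**Figure D4:**
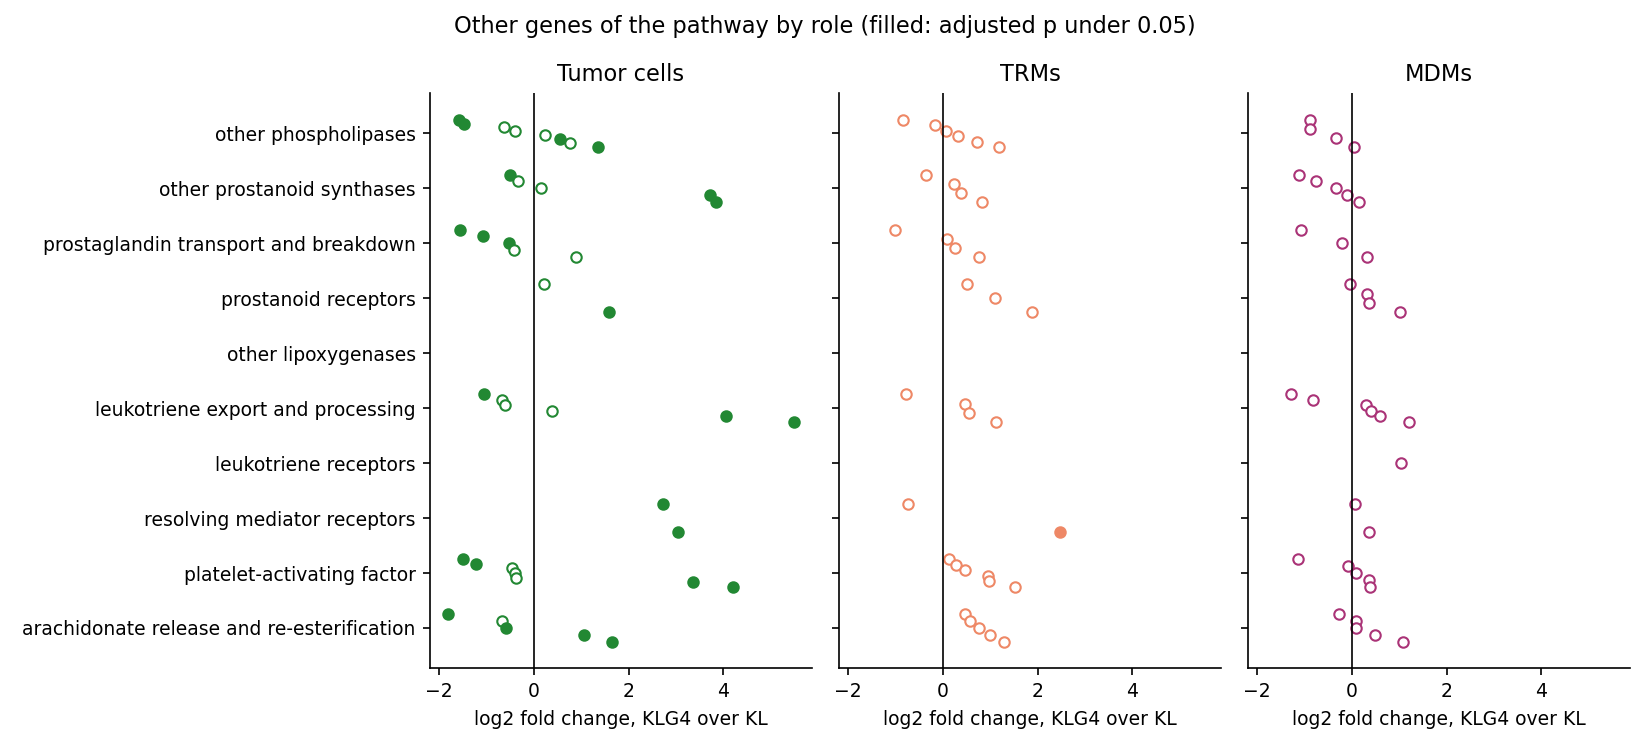
Log2 fold change, KLG4 over KL, of the other pathway genes tested in each population, in rows by role (filled points: limma adjusted p under 0.05). Tumor cells show filled points on both sides of 0, TRMs 1 filled point and MDMs 0.

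In TRMs, 34 of the 75 were tested and 1 rose, against 1.36% of all genes. That gene, Cmklr1, went from 0.646 and 0.835 to 4.61 and 4.52 RPKM (log2 fold change 2.48, SE 0.33, limma adjusted p = 0.0433). Its change was 1.68 to 2.65 over 14 alternatives, 7 of which lost the call. Cmklr1 passed the filter through its KLG4 libraries alone, so no result here rests on its test. Among the next largest changes without overlap, Ptgir, the prostacyclin receptor, was at 2.40 and 3.41 RPKM in KL and 17.4 and 6.71 in KLG4 (limma adjusted p = 0.0841). Daglb, a diacylglycerol lipase, was at 3.14 and 2.95 against 7.52 and 7.61 RPKM (0.0544), Lpcat2 at 2.98 and 0.775 against 4.22 and 5.0 (0.169), and Pla2g6 at 0.843 and 1.03 against 2.20 and 2.29 (0.113). KLG4 lay above KL for 23 of the 34, against 53.7% of all genes in TRMs, and below for 2. In MDMs 35 were tested and 0 were called by limma, with 4 at an unadjusted p under 0.05, against 6.74% of all genes. The largest changes without overlap were those of Mgst3, at 1.18 and 2.81 against 0.769 and 0.631 RPKM (-1.28), Lpcat1 (-1.13), Cbr1 (-1.12), Lpcat3 (1.08) and Ptgr1 (-1.07), each with a limma adjusted p of 0.679.

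Over the 12 libraries, the genes whose profiles lay nearest to each of the 10 were found by the root mean square difference of centered log2(RPKM + 0.1), among 11489 genes. For Alox5ap they included Gm19719 (0.10) and Lcp2 (0.24), and for Alox5 they were Clec4n (0.21), Rassf5 (0.24) and Bin2 (0.26). For Lta4h they were Vps41, Hsdl2 and Glud1, all at 0.14. Ptges was nearest to Anxa3 (0.38), Vill (0.38) and Ahcyl2 (0.41), Ptgs2 to Trib1 (0.43), Pik3ip1 (0.43) and 9130230L23Rik (0.45), and Pla2g4a to Dnajb13 (0.15), Clock (0.21) and P2rx3 (0.21). Pla2g7 was nearest to Nfkbie (0.37), Gm45222 (0.41) and 1700071M16Rik (0.42), Ptgs1 to Gm43621 (0.31), Zfp609 (0.43) and Mcoln1 (0.43), and Ltc4s to Pald1 (0.32), Gm26542 (0.33) and Gm20460 (0.40). Alox15 had no close neighbor, the nearest being Tiam1 (0.71), Gm9823 (0.74) and Gm16575 (0.78). For all 4 genes with an opposite-strand model, that model was among the 3 nearest.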

How the data were processed

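RNA-seq libraries of FACS-sorted cells were analysed: 12 of the 17 samples, 2 for each genotype in tumor cells, TRMs and MDMs. The other 5 samples were not analysed here. Per the study's methods and the submitters' processing notes, poly(A) RNA was made into non-directional libraries, and reads were trimmed (Trim Galore 0.6.4), aligned (HISAT2 2.0.5) and counted (featureCounts 2.0.0). The authors then deposited 1 table per population with RPKM values per library, not counts. The tables also hold the authors' own comparison columns: fold changes, p-values and false discovery rates, which were not used. Recovered from RPKM and gene length, values under 2000 reads were whole within 0.05 reads for 100.0% of genes, and totals were 9140750 to 36616982 reads.

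Groups came from the sample titles. KLG4 was compared with KL in each table with limma 3.58.1 (R 4.3.3). Values entered as log2(RPKM + 0.1), the prior variance followed the mean level, and two-sided p-values received a Benjamini-Hochberg adjustment among genes reaching 1 RPKM in 2 of 4 libraries. Differences between populations were contrasts in 1 fit over 12 libraries and genes with at least 1 RPKM in 2 of them. The study's methods name a count-based test, which was not used as the main test because the values are RPKM. The fits were tested on simulated data. Fold changes on this scale understate those of low genes. Genes whose symbols had become dates were left out of the fit over 12 libraries.

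The 10 genes, the 75 pathway genes and the marker lists were chosen with earlier results of these data known. Named were all 10 and, in each population, up to 12 pathway genes that passed the test and averaged 1 RPKM or more in a group, or, where fewer than 3 passed, the 5 with the largest change among groups without overlap, and the 3 nearest profiles, of which 1 is not reported here. Other settings tried were the pseudocount, the filter, scaling, the trend, limma-voom on recovered reads, the replicate number as a block and each library left out. Rescaling outside mitochondrial genes and 6 nuclear copies, and counting the KLG4 tumor pair as 1 sample, were added after seeing the data. Promoters came from RefSeq and gene positions from GENCODE, both on GRCm38.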

Additional observations from a re-analysis of the deposited data

Results flagged for a closer look

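The change from KL to KLG4 differed between 2 populations, by a contrast in the fit over 12 libraries at an adjusted p under 0.05, for 8 pairs of gene and populations other than those with Alox15. Between tumor cells and TRMs the change in tumor cells minus that in TRMs was 4.0 for Alox5ap, 3.35 for Alox5, -2.01 for Ptges and -2.36 for Ptgs1 on the log2 scale. For Alox15 the fit gave -3.12, but the gene had 0 reads in both KL TRM libraries and passed the filter only through libraries where it was higher, so it is not counted, and the value depends on the pseudocount (-6.13 to -1.07) and is no bound. Between tumor cells and MDMs the difference was 3.94 for Alox5ap, 2.83 for Alox5, 2.17 for Pla2g7 and -2.04 for Ptgs1. The tumor cell libraries enter both sets. The 5 differences of Alox5, Alox5ap and Pla2g7 held in every alternative run, and the other 3, of Ptgs1 and Ptges, lost their call in at least 6 of the alternatives each. The summed leukocyte markers, 26.3 to 37.5 RPKM in KL and 322 to 326 in KLG4 tumor cells, moved with Alox5 and Alox5ap in tumor cells, where their part was not tested beyond the ratios given above.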

How the results depend on the processing

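In tumor cells 5543 genes were called, against 3284 with a mean of at least 5 RPKM and 1923 with the KLG4 pair counted as 1 sample, and 1927 to 7372 without a single library. Of the 10 genes 7 were called, against 6 outside mitochondrial genes and 6 nuclear copies (Ptgs1 lost), 2 with the pair counted as 1, and 2 to 7 without a single library. Quantile scaling moved the median of all genes from -0.09 to -0.23. Alox5 and Alox5ap kept their calls in each alternative run that tested them, with a limma adjusted p of at most 0.0277.

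In TRMs 198 genes were called. The count was 490 with a pseudocount of 1, 122 with 0.01, 120 without a filter, 557 with a mean of at least 5 RPKM, 56 with quantile scaling, 28 with TMM, 66 outside mitochondrial genes, 31 outside these and 6 nuclear copies, 12 without a trend, 759 with limma-voom, 470 with the replicate block, and 113 to 2382 without a single library. Of the 10 genes 1, Pla2g7, was called. There were 2 with a pseudocount of 1 and with limma-voom, Alox15 being the other, and without a filter Alox15 was called and Pla2g7 was not (limma adjusted p = 0.0509), but since Alox15 passes a filter through KLG4 alone, its calls are no support for a change. There were 0 with a pseudocount of 0.01, quantile, TMM or either mitochondrial rescaling or without a trend, and 0 to 2 without a single library. Under quantile scaling, TMM, the rescaling with 6 copies and limma-voom, Pla2g4a turned to -0.084, -0.071, -0.085 and -0.077, Ptgs2 to -0.18, -0.13, -0.14 and -0.088, and Lta4h to -0.13, -0.12, -0.13 and -0.18, none of them called. Without a single library the changes were 0.582 to 1.825 for Ptgs1, -0.47 to 0.18 for Alox5, -0.38 to 0.12 for Alox5ap and -0.002 to 0.51 for Lta4h.

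In MDMs 0 genes were called in every alternative run but the one without KL replicate 1, so that the counts without a single library were 0 to 2682 genes and 0 to 1 of the 9. Ptges turned to -0.002 with the rescaling with 6 copies and to -0.05 with limma-voom. Without a single library the changes were -0.91 to 0.22 for Pla2g4a, -0.49 to 0.59 for Ptges, -0.18 to 0.059 for Alox5ap, -0.45 to 0.18 for Lta4h and -0.54 to 0.98 for Ltc4s.

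Between tumor cells and TRMs 2330 genes differed, against 929 with the pair counted as 1 and 933 to 3102 without a single library, and of the 10 genes 5 (with Alox15), against 3 with TMM and with the rescaling with 6 copies, 2 with the pair counted as 1, and 3 to 5. Between tumor cells and MDMs 1383 differed, against 837 and 807 to 2743, and of the 10 genes 4, against 3 to 6. Between TRMs and MDMs 26 differed, against 8 with a pseudocount of 1, 14 with quantile scaling, 0 with TMM, 6 outside mitochondrial genes, 3 outside these and 6 copies, 9 without a trend, 1 with the replicate block and 0 to 2274 without a single library, and of the 10 genes 0 to 2. The causes of these shifts were not tested. Same-numbered libraries did not deviate together (r of 0.019, -0.06 and 0.054 across genes in the 3 tables), so the numbers do not pair them, and the replicate block changed no call among the 10 genes. The 2 libraries of each group limit every spread, and Ltc4s in tumor cells and Alox15 rest on under 100 reads in every library. Other values rest on under 100 reads in some libraries. Among them are Alox5 in KL tumor cells (47 and 70 reads), Ptges in KL TRMs (48 and 39) and Ptgs1 in KL TRM replicate 2 (52).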
